A study of Mus musculus with 2 samples.

Results

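These are the H3K9me2 peaks of embryonic mouse cortex that lay just outside genes: autosomal peaks (chromosomes 1 to 19) whose midpoint fell in no RefSeq gene body of GRCm38, the assembly that mm10 represents, but within 2000 bp of the start or end of at least 1 gene. There were 270 of them among the 6996 peaks listed, 37 of 743 in the wild-type library and 233 of 6253 in the transgenic library. Both libraries came from cortex of C57BL/6 embryos at embryonic day 15.5, 1 from wildtype and 1 from TBC1D3-transgenic animals, and both were immunoprecipitated with an antibody to H3K9me2 and sequenced. The promoter that drives the transgene, and how many embryos went into each library, are not given in the sources used here. With 1 library per genotype there was no replicate error, no p-value was computed, and each 95% interval below covers counting error alone.

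H3K9me2, dimethylation of lysine 9 of histone H3, is a mark of repressed chromatin that is written in euchromatin mainly by G9a (Ehmt2) together with GLP (Ehmt1). It tends to spread over broad domains between and across silent genes rather than to form sharp summits, and it is usually low at the start sites of active genes. The sequence next to a gene holds its promoter on the upstream side and the region past its last exon on the downstream side, which is why the sides were separated. The series title ties TBC1D3, a gene of hominoid primates, to G9a and to neural progenitors.

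Flank peaks that overlapped the window around a RefSeq start site were all transgenic. Of the 233 transgenic flank peaks, 11 (4.72%, 95% exact binomial interval 2.38 to 8.29) overlapped the window from 250 bases before to 50 bases after a RefSeq start site, at 10 genes, and of the 37 wild-type flank peaks 0 did, which allows a share of up to 8.11%. Those limits overlap, so the libraries were not shown to differ. The share of flank sequence within reach of such windows was not measured. The 4.72% is therefore not shown to be more or less than that share. Of the 11 peaks 3 covered the start base itself, at Tie1, Gm16527 and Cyp2j8, and the others lay wholly upstream of it. The 10 genes were the protein-coding genes Tie1 (a receptor tyrosine kinase of blood vessel endothelium), Gm16527, Cyp2j8 (a cytochrome P450) and Cst10 (a cystatin), and the long noncoding RNA (lncRNA) genes Gm40264, 4930413E15Rik, Gm33980, Gm3331, Gm46665 and Chn1os3. The windows of the 4 coding genes and of 2 lncRNA genes whose peaks were among the stronger ones are shown because they are the places where these peaks can be read base by base. They are RefSeq sequences of GRCm38.p6, given in the direction of the gene, with the bases under a transgenic peak in capitals. The window of Tie1 is chr4:118489800-118490099 (minus strand), of Gm16527 chr3:59777544-59777843 (plus), of Cyp2j8 chr4:96507348-96507647 (minus), of Cst10 chr2:149404999-149405298 (plus), of Gm40264 chr5:9034496-9034795 (plus) and of 4930413E15Rik chr5:118952089-118952388 (plus).
Tie1: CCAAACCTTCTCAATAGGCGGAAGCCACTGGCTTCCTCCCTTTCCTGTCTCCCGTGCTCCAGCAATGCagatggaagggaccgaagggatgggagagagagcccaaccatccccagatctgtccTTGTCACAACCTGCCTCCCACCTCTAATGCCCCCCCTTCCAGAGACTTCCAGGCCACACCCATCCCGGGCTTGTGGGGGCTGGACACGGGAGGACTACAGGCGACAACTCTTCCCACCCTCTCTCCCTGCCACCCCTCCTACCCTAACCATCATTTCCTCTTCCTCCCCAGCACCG
Gm16527: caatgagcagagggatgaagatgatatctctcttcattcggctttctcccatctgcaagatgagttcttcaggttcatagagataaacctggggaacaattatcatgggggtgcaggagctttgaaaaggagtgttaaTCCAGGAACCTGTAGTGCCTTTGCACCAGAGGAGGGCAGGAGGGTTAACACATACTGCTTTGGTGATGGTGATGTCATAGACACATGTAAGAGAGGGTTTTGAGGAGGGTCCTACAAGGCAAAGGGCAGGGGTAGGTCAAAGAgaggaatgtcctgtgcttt
Cyp2j8: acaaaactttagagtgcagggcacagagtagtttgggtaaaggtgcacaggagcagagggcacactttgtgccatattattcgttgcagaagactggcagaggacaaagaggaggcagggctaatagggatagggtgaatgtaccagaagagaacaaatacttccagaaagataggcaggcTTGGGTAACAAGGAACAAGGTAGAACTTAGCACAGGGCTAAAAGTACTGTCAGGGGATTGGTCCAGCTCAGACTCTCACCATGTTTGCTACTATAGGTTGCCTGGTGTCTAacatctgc
Cst10: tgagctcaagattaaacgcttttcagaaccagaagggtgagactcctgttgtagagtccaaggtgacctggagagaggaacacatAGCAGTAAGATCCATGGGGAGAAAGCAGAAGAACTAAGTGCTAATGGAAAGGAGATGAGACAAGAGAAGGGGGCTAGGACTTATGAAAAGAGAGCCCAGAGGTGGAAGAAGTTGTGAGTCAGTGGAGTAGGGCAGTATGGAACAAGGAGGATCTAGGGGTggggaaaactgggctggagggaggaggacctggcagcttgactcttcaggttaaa
Gm40264: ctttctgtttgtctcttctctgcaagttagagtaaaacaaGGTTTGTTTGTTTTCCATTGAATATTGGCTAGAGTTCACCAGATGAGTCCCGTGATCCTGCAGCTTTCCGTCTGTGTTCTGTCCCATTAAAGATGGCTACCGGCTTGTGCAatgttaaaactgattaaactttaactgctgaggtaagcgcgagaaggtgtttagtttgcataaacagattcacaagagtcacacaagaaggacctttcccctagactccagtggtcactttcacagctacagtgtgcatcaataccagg
4930413E15Rik: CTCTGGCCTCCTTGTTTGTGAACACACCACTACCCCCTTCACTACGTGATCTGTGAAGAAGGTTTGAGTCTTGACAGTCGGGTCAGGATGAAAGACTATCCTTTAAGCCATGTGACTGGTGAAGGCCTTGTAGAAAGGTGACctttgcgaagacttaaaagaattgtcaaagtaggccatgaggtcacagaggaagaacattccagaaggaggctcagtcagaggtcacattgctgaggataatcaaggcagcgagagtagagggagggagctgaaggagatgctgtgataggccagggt

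The window of Tie1 was covered over 244 of its 300 bases by 2 peaks, and the other windows by 1 peak each, over 160 bases in Cst10, 143 in Gm16527, 142 in 4930413E15Rik and 111 in Cyp2j8 and Gm40264. CpG, the dinucleotide that is methylated in mammals and is dense at many promoters, was rare in all 10 windows. It occurred 7 times in Tie1, 6 in Gm33980, 5 in Gm40264, 4 in 4930413E15Rik, Chn1os3 and Gm3331, 2 in Gm46665, and 1 time in Cst10, Cyp2j8 and Gm16527. The median over all coding genes with sequence here and some flank outside gene bodies was 14. No median was computed over lncRNA windows, so the lncRNA genes among the 10 have no like value beside them. Short promoter motifs were searched on both strands as exact letters, and none of them contains another. CCAAT was found in Cyp2j8 and Gm40264 (37.3% of all autosomal RefSeq windows of this length hold it) and TATAAA in Gm33980 (13.6%). GGGCGG (36.0%) and GATAAG (7.44%) were found in none of the 10 windows.

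Tie1 was the coding gene with the closest pair of peaks. The transgenic library had a peak of 5 fragments at chr4:118489781-118489975, with its midpoint 29 bp upstream of the Tie1 start, and a second of 7 fragments at chr4:118490032-118490145, 239.5 bp upstream. Their deposited −log10 p was 3.26 and 5.53 and their fold enrichment over background 3.02 and 4.34. The wild-type list held no peak in the body or flanks of Tie1. Both peaks also lay within 2 kb of the pseudogene Gm12859, 865 and 654.5 bp from it. Tie1 was 1 of 14 genes on a list of endothelial, mural and meningeal markers. The other 13, Cdh5, Pecam1 and Kdr among them, had no flank peak in either library. Inside the gene, Cdh5 held 1 wild-type and 2 transgenic peaks, and Pecam1 and Kdr held none.

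**Figure D1:**
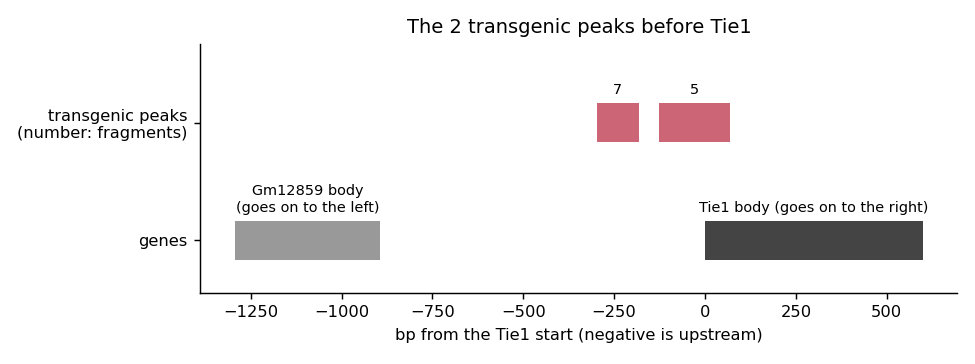
The transgenic peaks before the start of Tie1, drawn to scale in bp from that start (negative is upstream), with the edges of Tie1 and of the pseudogene Gm12859. The numbers are ChIP fragments: the peak of 5 fragments reaches across the start and the peak of 7 lies wholly upstream.

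At a −log10 p or a fold of at least 5, flank peaks were not shown to differ in strength from the other peaks. The median flank peak rested on 6 fragments in each library (range 5 to 12 in the wild type and 5 to 10 in the transgenic). A deposited −log10 p of at least 5 was reached by 12 of 37 wild-type flank peaks (32.4%, 18 to 49.8), where 24.9% of all autosomal wild-type peaks reached it, and by 63 of 233 transgenic ones (27.0%, 21.4 to 33.2), where the share over all was 32.5%. A fold of at least 5 was reached by 4 wild-type flank peaks against 8.36% of all wild-type peaks, and by 3 transgenic flank peaks against 2.66% of all transgenic peaks. Flank peaks were scarcer among the 742 transgenic peaks of highest −log10 p, a cut chosen after the data were seen. They made up 2.29% there (1.34 to 3.64), an interval that leaves out the 3.82% over all autosomal transgenic peaks. All 37 wild-type flank peaks carried a q of 1, and the lowest q in the transgenic flanks was 0.0673. None of these peaks would thus pass a q of 0.05. These calls rested on 26735120 wild-type and 20697113 transgenic ChIP tags, and the calls used fragment extensions of 57 and 111 bp.

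**Figure D2:**
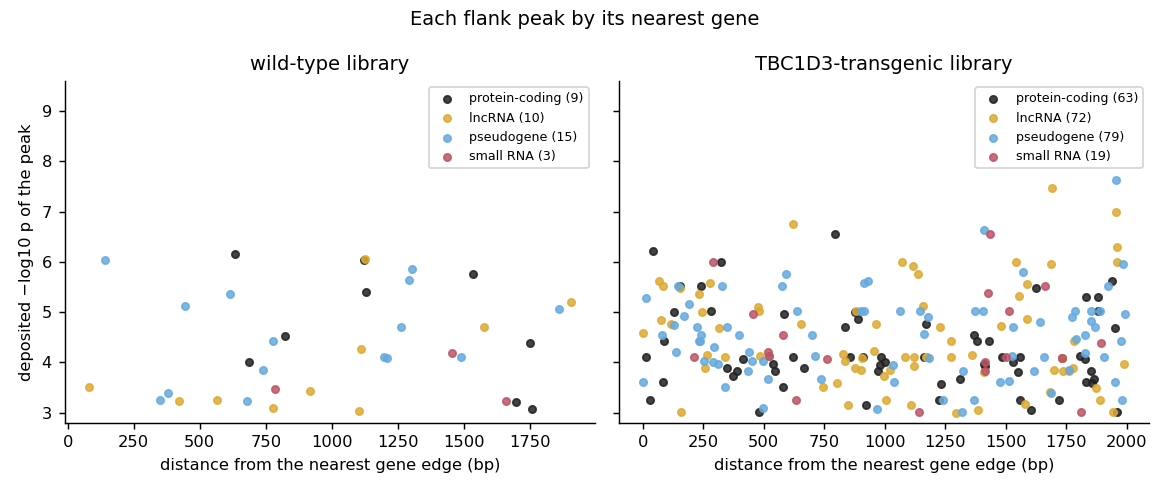
Every flank peak by its distance from the edge of the nearest gene (x, bp) and its deposited −log10 p (y), coloured by the class of that gene with its count. Transgenic peaks of all classes spread over most of the flank, and the strongest, with a −log10 p of 7.64, lay near the outer limit. Of the 9 wild-type peaks nearest to coding genes, 0 lay within 500 bp, too few peaks to show a lack there.

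The outer limit of 2000 bp cut through a continuous set of peaks. The outermost transgenic member lay 1994 bp from Gm18901 (7 fragments, fold 3.98), and the first peak left out lay 2012.5 bp from Hnmt (10 fragments, fold 5.54). In the wild type the outermost member lay 1907 bp from Gm33390 (7 fragments, fold 4.61) and the first left out 2054 bp from 1700063D05Rik (6 fragments, fold 3.35).

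In the transgenic library flanks were poorer in peaks than the sequence farther from genes. Flanks outside gene bodies made up 112 Mb, or 4.66% of the autosomal span, and held 3.82% of transgenic peaks (3.36 to 4.34) and 4.99% of wild-type peaks (3.53 to 6.81). The transgenic density was 2.08 peaks per Mb in flanks (1.82 to 2.37), 3.14 in intergenic sequence (3.04 to 3.25) and 2.02 in gene bodies (1.94 to 2.1). The flank density was 0.663 times the intergenic one (0.578 to 0.758), with an interval below 1, and 1.03 times that of gene bodies (0.899 to 1.18). The wild-type density was 0.331 per Mb in flanks, 0.366 in intergenic sequence and 0.254 in gene bodies. Its flank density was 0.904 times the intergenic one (0.627 to 1.27), an interval that overlaps the transgenic one. The transgenic list had 6.30 times as many flank peaks as the wild-type list (4.44 to 9.17) and 8.31 times as many peaks elsewhere on autosomes (7.68 to 9.0), so over the whole lists the ratio was not shown to be other in flanks than elsewhere. Among the 742 transgenic peaks of highest −log10 p, as many as the wild-type list has on autosomes, 17 lay in flanks (2.29%), which is 0.459 times the wild-type count (0.243 to 0.837), an interval below 1. That setting was added after the data were seen, and it matched the length of the lists but not the strength of their peaks. At a −log10 p of at least 5 in both lists, flanks held 6.49% of wild-type peaks (3.40 to 11.1). They held 3.19% of transgenic ones (2.46 to 4.06), and the 2 intervals overlap. Which parts of a flank can be mapped uniquely was not measured.

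Peak density in flanks differed with the kind of gene beside them, in both libraries. Coding genes lay nearest to 49.2% of flank sequence but to only 27.0% of transgenic flank peaks (63 of 233, 21.4 to 33.2) and 24.3% of wild-type flank peaks (9 of 37, 11.8 to 41.2). Pseudogenes, decayed copies of genes that are mostly not transcribed, lay nearest to 21.8% of flank sequence and to 33.9% of transgenic (79, 27.9 to 40.4) and 40.5% of wild-type flank peaks (15, 24.8 to 57.9). The transgenic density was 1.14 peaks per Mb beside coding genes (0.880 to 1.46), 2.65 beside lncRNA genes (2.08 to 3.34), 3.25 beside pseudogenes (2.57 to 4.04) and 3.77 beside genes of small RNAs (2.27 to 5.88). Coding flanks thus had 0.353 times the density of pseudogene flanks (0.249 to 0.497; 0.442 with an interval of 0.0592 to 3.30 in the transgenic list cut to the wild-type number of peaks) and 0.431 times that of lncRNA flanks (0.303 to 0.614). Against intergenic sequence coding flanks stood at 0.365 (0.280 to 0.468), while lncRNA (0.845, 0.660 to 1.07) and pseudogene flanks (1.03, 0.816 to 1.29) had intervals that include 1.

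The wild-type library showed the same order between coding and pseudogene flanks with far fewer peaks. Its densities were 0.164 peaks per Mb beside coding genes (0.0748 to 0.310), 0.369 beside lncRNA genes (0.177 to 0.678) and 0.616 beside pseudogenes (0.345 to 1.02). Coding flanks had 0.265 times the density of pseudogene flanks (0.102 to 0.647), or 0.295 over peaks with a −log10 p of at least 5, where the interval includes 1 (0.0612 to 1.24), and 0.444 times that of lncRNA flanks with an interval that includes 1 (0.160 to 1.22). Pseudogenes and small RNA genes have near-identical copies elsewhere in the genome, and the file names in the headers carry uni, so how reads with several matches were treated bears on these flanks and was not tested. The comparison between gene classes was added after the data were seen.

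**Figure D3:**
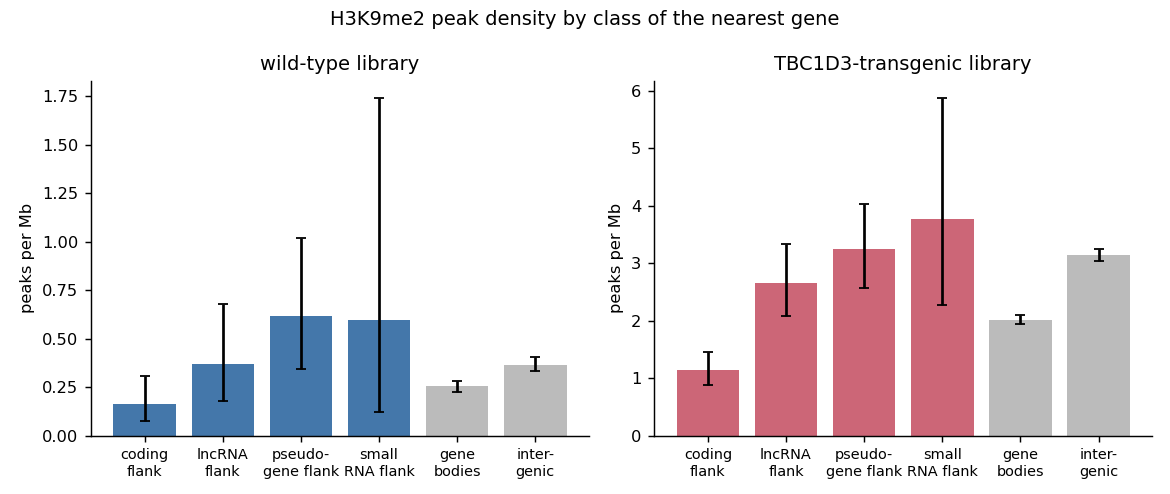
Peaks per Mb in flanks by the class of the nearest gene (coloured bars) and in gene bodies and intergenic sequence (grey bars), with exact 95% Poisson intervals, in each library (the y axes differ). Coding flanks are the lowest bar in both, at 0.164 and 1.14 peaks per Mb.

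In the transgenic library coding flanks were also poorer in peaks than other flanks of windows with like gene number. Windows of 1 Mb with 0 to 5 coding genes held 1.58 transgenic peaks per Mb of coding flank against 3.64 per Mb of other flank, a ratio of 0.435 (0.216 to 0.801). In windows with 6 to 15 coding genes the values were 0.967 and 2.71 (0.358, 0.203 to 0.604), and with over 15 they were 1.16 and 2.32 (0.499, 0.292 to 0.853). All 3 intervals lay below 1. In the wild type the 3 ratios rested on 0, 4 and 5 coding flank peaks, and only that of windows with 6 to 15 coding genes had an interval below 1 (0.291, 0.0698 to 0.927). In wild-type windows with over 15 coding genes the ratio ran the other way, at 1.21 (0.198 to 12.7). The flank as a whole, set against intergenic sequence of the same windows, came to 0.918 (0.740 to 1.13) in the gene-poorest transgenic windows, 0.626 (0.489 to 0.791) in the middle class and 0.740 (0.550 to 0.982) in the gene-richest.

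Peaks lay upstream and downstream of genes about evenly. Strand was known for 26727 of 46710 autosomal genes, 16456 of them coding, from the RefSeq tables of start sites and miRNAs, and it gave a side to 12 wild-type and 102 transgenic flank peaks. Of the 102, 51 lay before the start of the nearest gene and 51 past its end, so that 50% were upstream (39.9 to 60.1), where 47.6% of the flank sequence with a side was upstream. Of the 12 wild-type peaks 5 were upstream and 7 downstream (41.7%, 15.2 to 72.3). Beside coding genes the transgenic density was 1.21 peaks per Mb upstream (0.793 to 1.78) and 1.15 downstream (0.749 to 1.68). Beside lncRNA genes it was 2.67 (1.73 to 3.94) and 2.22 (1.44 to 3.28). The interval of the upstream to downstream ratio over all transgenic flanks was 0.732 to 1.66, so a difference between the sides within that range was not detectable. The 131 transgenic and 25 wild-type peaks without a side lay mostly beside pseudogenes and small RNA genes, for which strand was not known here.

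Transgenic flank peaks were densest in the outermost step from the gene. Transgenic peaks numbered 60 in the first 500 bp from the gene (1.95 per Mb, 1.49 to 2.51), 48 in the next 500 bp (1.68, 1.24 to 2.22), 52 in the third step (1.93, 1.44 to 2.53) and 73 in the last (2.86, 2.24 to 3.6). The interval of the last step overlapped those of the first and the third step, and its density was the closest of the 4 to the intergenic 3.14. Within 500 bp of a gene the density was 0.914 times that of the rest of the flank (0.670 to 1.23). Within 1 kb it was 0.763 times that of the outer 1 kb, with an interval just below 1 (0.584 to 0.995). Beside coding genes the 4 steps held 15, 16, 12 and 20 transgenic peaks, or 0.966, 1.13, 0.915 and 1.64 per Mb, with overlapping intervals. In the wild type the 4 steps held 6, 11, 12 and 8 peaks. Of the 9 wild-type peaks nearest to coding genes, 0 lay within 500 bp, over 15.5 Mb of such sequence. The interval of that 0 reaches 0.237 per Mb and includes the 0.164 of all wild-type coding flanks, so no lack of peaks was shown.

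**Figure D4:**
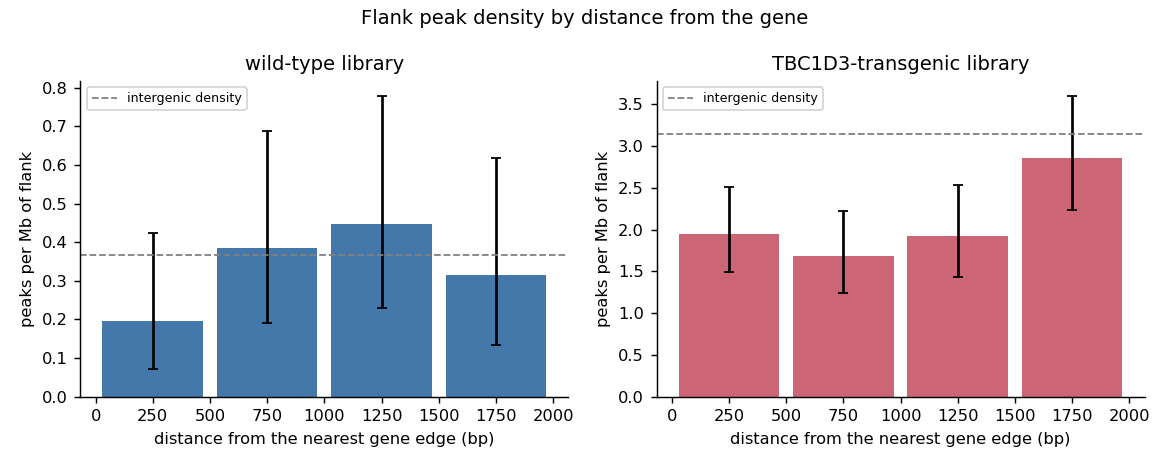
Flank peaks per Mb in steps of 500 bp from the edge of the nearest gene, with exact 95% Poisson intervals, beside the intergenic density (dashed line). The last transgenic step, at 2.86 per Mb, is the nearest to the line at 3.14.

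Coding genes with a transgenic peak in their flank mostly had start sites poor in CpG. A start was called CpG-rich where its window of 300 bases had at least 50% G and C and at least 0.6 times the CpG its composition would give, and the outermost start of each gene was used. Of 50 transgenic-flanked coding genes with sequence, 6 were CpG-rich (12%, 4.53 to 24.3), against 47.9% of the 15676 coding genes with sequence and some flank outside gene bodies. The 6 were Ildr1, Fndc1, Ovol2 (a zinc finger factor of epithelia), Arhgap29, Tex26 and Klhl26. The median window of the 50 genes held 3 CpG, where that of all coding genes held 14. Per Mb of coding flank there were 1.83 transgenic peaks (46 peaks, 1.34 to 2.44) beside CpG-poor starts and 0.317 (6 peaks, 0.116 to 0.691) beside CpG-rich ones, a ratio of 5.76 (2.45 to 16.5). Over peaks with a −log10 p of at least 5 it was 3.38 (0.699 to 32.1), and 1 lay inside that interval.

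The gap was present on both sides of the gene. Upstream it was 25 peaks against 1 (1.99 and 0.113 per Mb, a ratio of 17.6 with an interval of 2.88 to 722), and downstream 21 against 5 (1.67 and 0.497 per Mb, 3.35, 1.23 to 11.4). Klhl26 held the only transgenic peak upstream of a CpG-rich start, 876 bp before it. In the wild type 1 of 7 flanked coding genes with sequence, Phc3, was CpG-rich, and the ratio of 4.50 had an interval that includes 1 (0.546 to 207). CpG-rich starts are, as background, typical of genes used in many tissues and of developmental regulators, and CpG-poor starts of genes used in few. Base composition of the flank sequence itself was not measured. This comparison was added after the members had been seen.

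**Figure D5:**
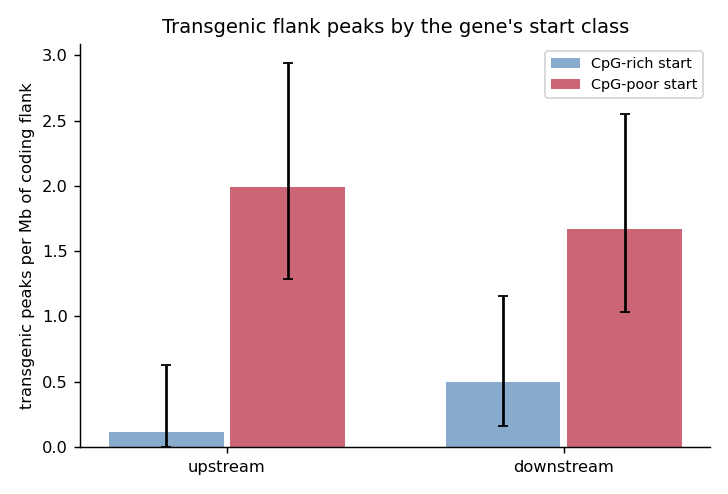
Transgenic peaks per Mb of coding flank, upstream and downstream, by whether the gene's outermost start is CpG-rich or CpG-poor, with exact 95% Poisson intervals. Upstream of CpG-rich starts there was 1 peak (0.113 per Mb), and upstream of CpG-poor starts there were 25 (1.99 per Mb).

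The wild-type library had a flank peak at 9 coding genes, or 0.0461% of the 19533 coding genes with some flank outside gene bodies. Ms4a15, a membrane-spanning protein of the MS4A family, had the strongest, a peak of 8 fragments 632 bp downstream at chr19:10977643-10977699 (fold 5.10, −log10 p 6.16). Pamr1, a secreted protein with protease-like domains, had a peak of 8 fragments 1121 bp from one end (fold 5.01). Spata48 had one of 7 fragments 1537 bp downstream (fold 4.97), and Ctse, the aspartic protease cathepsin E, one of 7 fragments 1129 bp from one end (fold 4.74). These 4 were the wild-type coding flank peaks with a −log10 p over 5.

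The other 5 wild-type coding genes had weaker peaks. Luzp2 had a peak 822 bp downstream (6 fragments, fold 4.27), Aifm2 (a lipid-peroxidation suppressor also called FSP1) 1750 bp upstream (6, fold 4.18) and Slamf1 (a receptor of immune cells) 687 bp upstream (6, fold 3.92). Phc3, a Polycomb protein, had a peak 1700 bp upstream (5, fold 3.47), which also lay within 2 kb of the pseudogene Gm2979. Tnnt2, cardiac troponin T, had one 1758 bp downstream (5, fold 3.36). None of the 9 had a transgenic flank peak. Pamr1 and Luzp2 each held 1 transgenic peak inside the gene.

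The transgenic library had a flank peak at 62 coding genes, 0.317% of 19533. Their −log10 p ranged from 3.02 to 6.56 with a median of 4.11, and their distance from 14 to 1993 bp. The strongest stood at Olfr54, an olfactory receptor gene, 794.5 bp from one end at chr11:51026148-51026271 (8 fragments, fold 4.89, −log10 p 6.56). The next was the peak across the start of Gm16527, with its midpoint 41 bp upstream (9 fragments, fold 4.53, 6.22). Olfr513 followed with a peak 324 bp upstream (8 fragments, fold 4.53, 5.99), then Arhgap29 with one 1937.5 bp downstream (8, fold 4.29, 5.63), and Olfr694 with one 155 bp from one end (7, fold 4.34, 5.53).

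The other 10 of the 15 genes with the highest −log10 p had peaks on both sides of genes. Upstream lay the peaks of Tie1 (above), Sdr9c7 (a retinoid dehydrogenase of skin) at 1626 bp with 8 fragments, Tmem215 at 1831 bp with 8, Serpinb2 (an inhibitor of plasminogen activators) at 281.5 bp with 7, and Klhl26 at 876 bp with 8. Downstream lay those of Rtp2 (a chaperone of odorant receptors) at 1883 bp with 8, Ifi207 (an interferon-induced gene) at 1879.5 bp with 7, and Slc19a3 (a thiamine transporter) at 128.5 bp with 8. Cyp2j9 had one at 584 bp and Tex26 one at 890.5 bp, both downstream with 7 fragments. Folds of the 9 besides Tie1 ran from 3.89 in Slc19a3 and Klhl26 to 4.21 in Sdr9c7. Cyp2j9 alone among these 9 also held a transgenic peak inside the gene, and none of them held a wild-type peak in body or flank.

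Peaks within 300 bp before a coding start were found at 5 genes, all transgenic. The wild-type list had only 3 flank peaks upstream of a coding gene, against 26 transgenic ones. The libraries were thus not shown to differ here. Besides Tie1, Gm16527 and Serpinb2 the genes were Cyp2j8, whose peak at chr4:96507356-96507466 had its midpoint 14 bp upstream (6 fragments, fold 3.52), and Cst10, with a midpoint 85.5 bp upstream (5 fragments, fold 3.26). Distances here run from the edge of the gene body. Serpinb2 was not among the 10 genes with a peak over the window of a RefSeq start site. The capitals above show the whole sequence under the peaks of Gm16527, Cyp2j8 and Cst10, and 176 and 68 bases of the Tie1 peaks, which are 195 and 114 bp wide.

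The genes on short lists of H3K9 methylation, progenitors and neurons had no flank peak. Genes outside these lists were not sorted by such roles. On 11 lists of genes by function or cell type, 10 had 0 genes with a flank peak in either library, the exception being Tie1. They held 25 genes of H3K9 methylation with some open flank (Ehmt1 and Ehmt2 among them), 15 of radial glia and apical progenitors, 12 of intermediate progenitors (with Eomes), 14 of basal radial glia (with Hopx), 17 of cortical neurons, 29 of axon guidance and synapse, 14 of interneurons, 11 of glia, 12 of microglia and blood and 18 of the cell cycle, among them Trp53. The progenitor genes Pax6 and Sox2 had 0 bp of flank outside other gene bodies, and Eomes 111 bp, so they could hold no flank peak or hardly any. Ehmt1 had 4000 bp, Ehmt2 1745 bp, Hopx 2405 bp and Trp53 2097 bp, and these 7 genes had no peak inside the gene in either library. Since only 0.317% of coding genes had a transgenic flank peak, lists this short could not show a lack of peaks: a count of 0 allows a share of up to 12% for the methylation list and up to 10.3% for the longest, that of axon guidance and synapse.

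Other flank peaks lay beside members of gene families, taken by symbol. Of 1083 olfactory receptor genes, which sit in large silent clusters outside the nose, 7 had a transgenic flank peak (0.646%, 0.260 to 1.33, against 0.317% of all coding genes): Olfr54, Olfr513, Olfr694, Olfr552, Olfr1000, Olfr1198 and Olfr771. Of 103 keratin and keratin-associated genes, structural proteins of skin and hair, 4 had one (3.88%, 1.07 to 9.65): Krtap4-9, Krt32, Krt5 and Krtap19-5. Of 95 cytochrome P450 genes 3 had one (3.16%, 0.656 to 8.95), the neighbouring Cyp2j8 and Cyp2j9, and Cyp2d9. Of 61 serine protease inhibitor genes 2 had one (3.28%, 0.400 to 11.3), Serpinb2 and Serpina3b. The intervals of the keratin, P450 and inhibitor families lay above the share of all coding genes and that of the olfactory receptors included it. No allowance was made for the 10 families looked at, and they were chosen with earlier results of these data known. A share per gene also takes no account of how much flank each gene has. These intervals are thus not a test of an excess in any family. Of 373 solute carrier genes 2 had one (0.536%, 0.0650 to 1.92), Slc19a3 and Slc6a18.

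Other families had none. No flank peak of either library was listed at 369 Zfp zinc finger, 342 vomeronasal receptor, 71 defensin, 85 potassium channel and 34 homeobox cluster genes. A count of 0 allows shares of up to 0.813% for the Zfp genes, 0.877% for the vomeronasal receptors, 3.53% for the potassium channels, 4.23% for the defensins and 8.82% for the homeobox clusters, all above the share of coding genes as a whole. The wild-type list had 0 flank peaks in all 10 families, at a share over all coding genes of 0.0461%. Members of a family lie side by side and share sequence, so they are not independent of each other.

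Few genes carried more than 1 flank peak. In the transgenic library Krtap4-9 had peaks of 6 fragments on both sides, 1731.5 bp upstream (fold 3.51) and 909 bp downstream (fold 3.52), and Serpina3b, a secreted inhibitor, had peaks 1232.5 bp upstream (5 fragments, fold 3.24) and 1368 bp downstream (6 fragments, fold 3.8). The pseudogene Gm4605 likewise had one on each side, at 1571 and 1531.5 bp with 8 and 7 fragments. Gm4291, Tie1 and its neighbour Gm12859 had both peaks on one side. In the wild type the pseudogene Gm7423 alone had 2, both of 7 fragments, 1859.5 and 445.5 bp before its first base at chr17:15319538-15319601 and chr17:15320943-15321024.

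Noncoding genes held the strongest flank peaks of the transgenic library. Coding genes lay nearest to only 27.0% of its flank peaks, so this is not shown to be a trait of noncoding genes. The pseudogene Gm35702 had a peak of 9 fragments 1955 bp away (chr5:13875119-13875255, fold 5.43, −log10 p 7.64), the lncRNA gene A930027H12Rik one of 9 fragments 1692.5 bp upstream (fold 5.33, 7.48), and the lncRNA gene Gm32236 one of 9 fragments 1955 bp downstream (fold 5.03, 7.0). The lncRNA gene 1700020G17Rik (619.5 bp upstream, fold 4.87) and the pseudogene Gm6362 (1412.5 bp away, fold 4.80) came next. In the wild type the strongest noncoding ones were at the lncRNA gene 4930538L07Rik, with 8 fragments 1127 bp upstream (fold 5.03, 6.06), and at the pseudogenes Cstdc7 (142 bp, fold 5.01), Gm46063 (12 fragments, 1303 bp, fold 4.14), Gm9240 (1292 bp, fold 4.76) and Gm8254 (616 bp, fold 4.71). The 12 fragments at Gm46063 were the most of any flank peak.

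The libraries had no flanked gene in common. Peaks lay in the flanks of 38 genes in the wild type and of 233 in the transgenic, and 0 genes were in both sets. With 38 and 233 of 46710 genes, an overlap of 0 does not show that the sets avoid each other. Measured along the genome, 4 of the 37 wild-type flank peaks had a transgenic peak within 10 kb (10.8%, 3.03 to 25.4), against 10.1% of wild-type peaks elsewhere (7.95 to 12.5), and 0 had one within 1 kb, which allows up to 8.11%. The nearest was a peak beside the pseudogene Tfdp1-ps on chromosome 1, 1703 bp from a transgenic peak. The others lay beside Spata48 (9381 bp), Gm24850 (8031 bp) and Gm30236 (7214 bp). That last distance was between 2 flank peaks, since the transgenic peak belonged to the flank of Gm18673 on chromosome 7.

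A flank peak in one library and a body peak in the other occurred at 5 genes. Besides Pamr1 and Luzp2 these were Dock2, a Rac activator of immune cells, with a transgenic peak 1864 bp upstream (8 fragments, fold 3.03) and 1 wild-type peak inside, and the lncRNA genes Gm41323 and A930027H12Rik, with transgenic peaks 1071 and 1692.5 bp upstream and 1 wild-type peak inside each. These 3 are long genes that also held 4, 3 and 6 transgenic peaks inside. Of the 233 transgenic-flanked genes 16 held a transgenic peak in the body too. The share of all genes with a body peak was not computed. Neither the 16 nor the 5 genes are thus shown to be more or fewer than usual.

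Across chromosomes the transgenic flank density ran from 0.642 peaks per Mb on chromosome 19 (2 peaks, 0.0777 to 2.32) to 4.02 on chromosome 18 (13 peaks, 2.14 to 6.88), where the autosomal value was 2.08. Chromosome 16 held 15 transgenic flank peaks (3.92 per Mb, 2.20 to 6.47) and 0 wild-type ones. Chromosomes 4 and 5 also held 0 wild-type flank peaks, beside 16 and 13 transgenic ones. A count of 0 allows up to 3 peaks, so it sets none of these chromosomes apart. The wild type had at most 5 flank peaks on a chromosome, reached on chromosomes 1 and 7. No allowance was made for the 19 chromosomes looked at, so the values of chromosomes 16 and 18 are not a test of an excess there.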

How the data were processed

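H3K9me2 ChIP-seq peak lists of 1 wild-type and 1 TBC1D3-transgenic library were used as deposited. The authors used MACS version 2.1.0.20150420, per the file headers, on each library against its own input with a p cutoff of 0.001, no shift model and summit calling. BWA and mm10 are named in the submitters' processing notes. The deposited pileup signal was divided by the factor 0.951 for the wild type and 1 for the transgenic (the input to ChIP tag ratio where below 1) and gave whole fragments within 0.01. The deposited fold enrichment is the peak caller's ratio of pileup to local background, and the −log10 p and q are the authors' values. The headers say that q was not calculated, yet values are listed and were used as such.

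Peaks were placed by midpoint on the RefSeq genes of GRCm38.p6, after leaving out genes that start before position 3000001. Each gap between merged gene bodies gave the flank sequence of its 2 border genes, which set the densities. The span of a chromosome ran from its first to its last gene or peak. Strand came from RefSeq start-site and miRNA tables matched by gene ID. Shares have exact Clopper-Pearson, densities exact Poisson and ratios exact conditional 95% intervals (Python 3.11.15, SciPy 1.17.1). They cover counting error only, and a count of 0 was read as at most 3. Placement was tested on positions of known class.

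Named genes were all wild-type-flanked coding genes, the 15 transgenic ones of highest −log10 p, those with a transgenic peak within 300 bp before the start, genes with 2 or more flank peaks or with peaks in both libraries, the top 5 noncoding genes per library, list members and 7 set genes (Ehmt1, Ehmt2, Pax6, Sox2, Eomes, Hopx, Trp53). Members and lists were chosen with earlier results of these data known. Alternatives changed flank width, strength limits, placement, gene set, chromosomes and merging.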

Additional observations from a re-analysis of the deposited data

Results flagged for a closer look

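Chromosome X lay outside the autosomal set. The transgenic list held 8 flank peaks there (1.06 per Mb of flank, 0.459 to 2.1) among 161 peaks, more than the 3 that a count of 0 allows. The wild-type list held 1 peak on the whole chromosome and 0 in flanks, so its 0 says nothing about flanks. The coding genes beside the 8 were Arhgef6, Cdx4, Gm4907 and Tex13b. The autosomal transgenic flank density was 2.08 per Mb.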

How the results depend on the processing

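No paired analysis was possible because each genotype had 1 library, and for the same reason no replicate could be left out. Of 87 values under other settings 49 stayed within their error or within 1.5 times, and 38 did not, most of them because the setting itself counts more or fewer peaks. A flank of 1 kb gave 17 wild-type and 108 transgenic flank peaks (2.29% and 1.77% of peaks) at 3 and 30 coding genes. A flank of 5 kb gave 86 and 545 (11.6% and 8.95%) at 35 and 185 coding genes. With coding genes alone as genes there were 9 and 75 flank peaks (1.21% and 1.23%).

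Keeping peaks with −log10 p from 5 up gave 12 and 63 flank peaks, at 4 and 13 coding genes, and 3.19% of transgenic peaks. A fold of at least 5 left 4 and 3 flank peaks, at 2 and 0 coding genes, with 1.85% of transgenic peaks in flanks, a transgenic to wild-type ratio of 0.750, and coding to pseudogene density ratios of 0.885 (wild type) and 0 (transgenic). Alternatives added after the data were seen included a transgenic list cut by −log10 p to as many peaks as the wild type. Its upstream share was 77.8%, with an interval of 40.0 to 97.2 that includes the 50% of the whole transgenic list. It gave 17 flank peaks (2.29%), 3 coding genes and a ratio of 0.459 to the wild type. Equal list length fixes the total, so only the lower share of 2.29% bears on flanks (interval of the ratio 0.243 to 0.837). Peak strength was not matched between these 2 lists. At a fold of at least 5 the ratio's interval includes 1 (0.110 to 4.43), and the cause was not tested. The CpG-poor to CpG-rich ratio in the transgenic library fell to 3.38 (0.699 to 32.1) over peaks with −log10 p from 5 up. The other library had a peak within 1 kb of 0 flank peaks in either list, and within 100 kb of 45.9% of wild-type and 10.7% of transgenic ones. No flank peak had a q below 0.05, and with 37 wild-type flank peaks most wild-type ratios have intervals that include 1.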
